A study of Homo sapiens with 6 samples.

Results

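The genes described here are 10 genes of meiosis, PRDM9, RNF212, HORMAD1, SYCP2, SYCP3, STAG3, REC8, SMC1B, DMC1 and SPO11, out of 26485 rows of a gene count table. Each was found by its symbol, and all 10 have a row. Polyadenylated RNA was sequenced from the established human cell line HuCCT1, derived from a cancer of the bile ducts (cholangiocarcinoma) and grown in DMEM-F12 with serum. There were 3 libraries (a, b and c) of AQP1 KO clone 22 and 3 (a, b and c) of WT clone 1, and both clones carry a CRISPR label. AQP1 encodes aquaporin-1, a channel for water. The comparison asks what differs in RNA between the AQP1 KO clone and the WT clone. Each genotype is 1 clone, so genotype and clone cannot be told apart. The set was assembled around PRDM9 and RNF212, which were selected on their count difference between these same clones. The members' KO and WT values are therefore given as a description, without a test.

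Meiosis is the pair of divisions that makes eggs and sperm, and the genes that run it are normally silent in body tissues such as bile duct epithelium. PRDM9 is a histone methyltransferase with a zinc finger array that marks the places where recombination starts. SPO11 then makes the DNA breaks, DMC1 is the meiotic recombinase that carries out strand exchange with the homologous chromosome, and RNF212 stabilises the sites that become crossovers. The chromosomes are held on a protein axis. HORMAD1 and the synaptonemal complex proteins SYCP2 and SYCP3 form part of that axis, together with the meiotic cohesin subunits STAG3, REC8 and SMC1B. PRDM9 and several axis genes are also known as genes that some tumours switch on.

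Promoters are shown for the 4 members whose counts did not overlap between the clones, so that what their start regions share can be read beside the values. RefSeq promoter sequences (GRCh38.p14) matched 9 of the 10 members; HORMAD1 is named only. Each window holds 250 bases before and 50 bases after an annotated start and is written 5′ to 3′ on the gene's strand. Capitals mark 2 motifs on either strand, the E2F6-type letters GGCGGGAA and the GC box letters GGGCGG. The windows are chr5:23507359-23507658 on the plus strand for PRDM9, chr4:1113515-1113814 on the minus strand for RNF212, chr20:59933588-59933887 on the minus strand for SYCP2 and chr22:45413550-45413849 on the minus strand for SMC1B.
PRDM9: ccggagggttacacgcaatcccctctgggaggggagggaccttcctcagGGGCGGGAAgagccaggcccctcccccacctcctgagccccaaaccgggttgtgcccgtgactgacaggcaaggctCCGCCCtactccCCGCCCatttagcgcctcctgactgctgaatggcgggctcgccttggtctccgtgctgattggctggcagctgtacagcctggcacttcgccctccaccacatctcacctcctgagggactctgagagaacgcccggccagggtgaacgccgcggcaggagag
RNF212: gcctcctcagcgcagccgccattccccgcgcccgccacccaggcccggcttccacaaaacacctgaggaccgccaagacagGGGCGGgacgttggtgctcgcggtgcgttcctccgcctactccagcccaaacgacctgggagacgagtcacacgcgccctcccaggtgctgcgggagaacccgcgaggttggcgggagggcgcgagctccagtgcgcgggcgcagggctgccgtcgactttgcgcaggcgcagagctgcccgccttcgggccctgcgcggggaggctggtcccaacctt
SYCP2: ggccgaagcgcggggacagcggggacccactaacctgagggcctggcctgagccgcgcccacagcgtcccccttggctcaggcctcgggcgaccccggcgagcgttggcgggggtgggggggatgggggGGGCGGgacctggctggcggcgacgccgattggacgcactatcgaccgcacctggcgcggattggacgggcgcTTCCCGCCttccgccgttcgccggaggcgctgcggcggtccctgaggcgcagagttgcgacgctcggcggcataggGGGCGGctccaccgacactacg
SMC1B: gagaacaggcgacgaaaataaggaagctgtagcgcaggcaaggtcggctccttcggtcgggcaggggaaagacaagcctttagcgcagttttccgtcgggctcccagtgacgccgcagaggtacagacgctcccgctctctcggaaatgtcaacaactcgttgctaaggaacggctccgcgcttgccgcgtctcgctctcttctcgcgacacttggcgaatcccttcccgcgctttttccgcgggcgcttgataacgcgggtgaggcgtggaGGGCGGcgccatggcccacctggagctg
The starts used for PRDM9 and RNF212 lie inside the gene spans given below, and the PRDM9 window lies wholly inside its span. The E2F6-type motif lies at position -200 of PRDM9 and at position -48 of SYCP2. Positions run from the annotated start to the first base of the match. In PRDM9 the motif overlaps a GC box and is upstream of the start used, not of the whole gene span. The E2F6-type motif was present in 2 of the 9 members, against 3.18% of all 27305 promoters of the same length. Members are counted here by gene, over any of its windows, and the background by promoter. STAG3 has a further window, so these shares are not in quite the same unit. The GC box was present in 8 of 9, all but SPO11, against 44.6% of all promoters. The E-box CACGTG was present in STAG3 alone among the 9, against 7.43%, and the cyclic AMP response element TGACGTCA in none of the 9, against 1.98%. The CpG dinucleotide, the target of DNA methylation, occurred 17 times in PRDM9, 34 times in RNF212, 41 times in SYCP2 and 34 times in SMC1B. The range over the 9 members was 17 to 41, against a median of 14 over all promoters. A match of letters is a description of the window and not a binding site.

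The libraries held 36925338 to 40905209 counts in AQP1 KO and 40536085 to 41724447 in WT. A count of 3, used as the floor, equals 0.0719 to 0.0812 counts per 1000000 counts of the library (CPM). The targeted gene AQP1 had 10, 7 and 7 counts in AQP1 KO libraries a, b and c, against 2, 8 and 10 in WT. In edgeR's quasi-likelihood test its log2 fold change was 0.27 (SE 0.63, Benjamini-Hochberg (BH) adjusted p = 0.715), so the genotype labels could not be checked by AQP1 RNA. Markers of biliary epithelium had counts in 9 of 9 genes. They summed to 2700 to 2770 CPM in AQP1 KO libraries, against 6330 to 6370 CPM in WT. Of 8 tested, 0 rose and 7 fell, KRT19 (-3.07) and EPCAM (-3.63) among them. Chosen after their values were seen, KRT7 fell little (-0.17) and CFTR did not pass (0.03). ONECUT1, also chosen so and not tested, ran the other way, with 13, 16 and 8 counts in AQP1 KO against 4, 4 and 0 in WT. In the same edgeR fit 10711 of 14405 genes passed an adjusted p of 0.05, which is 74.4%, with 37.1% higher and 37.2% lower in AQP1 KO. No label says that the letters are separate cultures, so each p-value reflects spread between libraries that may be only technical. Fold changes and ratios are AQP1 KO over WT throughout, and means are given ± SD over 3 libraries.

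PRDM9 and RNF212 RNA was at or near 0 in the AQP1 KO clone and plentiful in the WT clone. SMC1B and SYCP2 were also lower in every AQP1 KO library than in any WT library, at far lower levels. SYCP3, STAG3, REC8 and DMC1 had a few counts in both clones, with overlapping values. HORMAD1 and SPO11 had no count in any of the 6 libraries, which puts them below the floor of 0.0719 to 0.0812 CPM per library. Of the 8 members with a count, 4 did not overlap between the clones and all 4 of those were lower in AQP1 KO. Among all 19476 genes with a count, 61.9% did not overlap between the clones and 27.5% were lower in every AQP1 KO library. Since the members were chosen on this contrast, nothing is read from that count. Only 4 of the 10 members, PRDM9, RNF212, REC8 and SMC1B, passed the filter on low counts.

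**Figure D1:**
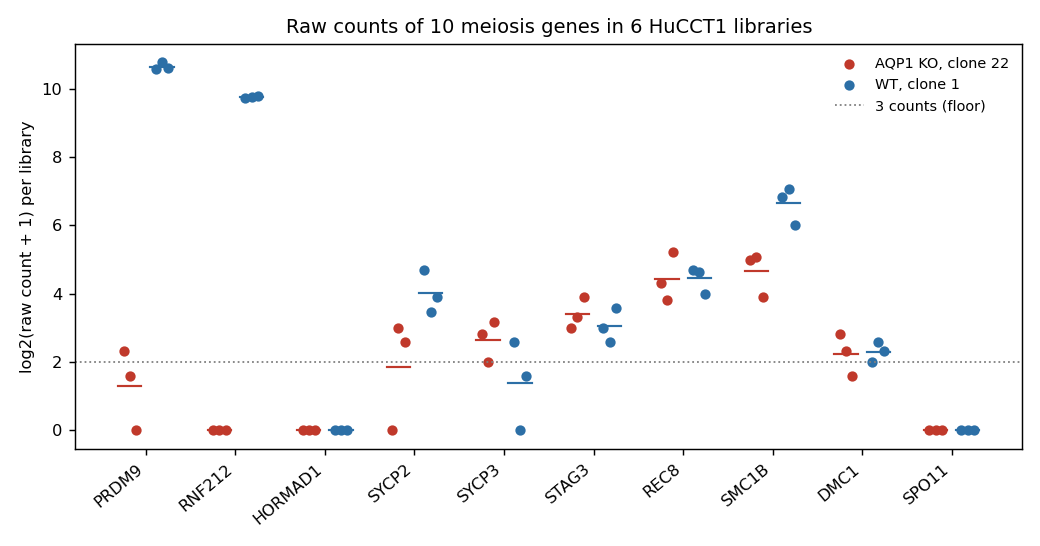
Raw counts of the 10 members, as log2(count + 1) on the vertical axis, with 1 point per library, AQP1 KO in red and WT in blue; horizontal bars are group means of the plotted values and the dotted line marks 3 counts. PRDM9 and RNF212 stand far above the line in WT alone, SMC1B is separated between the clones at lower counts, and HORMAD1 and SPO11 lie at 0 in all 6 libraries.

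PRDM9 (chromosome 5, 23507155 to 23528093, plus strand, GRCh38) had 4, 2 and 0 counts in AQP1 KO libraries a, b and c, against 1532, 1756 and 1551 in WT libraries a, b and c. The WT libraries lay close together and every one was far above every AQP1 KO library. The means were 0.049 ± 0.049 CPM in AQP1 KO and 39.2 ± 2.91 CPM in WT. The ratio of summed counts, each scaled to its library totals, was 0.00129 with an exact 95% counting interval of 0.000474 to 0.00281. Read the other way, WT held 774 times the AQP1 KO level (356 to 2110). The fitted log2 fold change of -9.56 rests on 6 counts in AQP1 KO and depends on which of its libraries are kept: it was -10.45 without AQP1 KO library a and -9.03 without library c. PRDM7, a near-identical copy of PRDM9 on another chromosome, had 0, 0 and 2 counts in AQP1 KO, against 2, 2 and 0 in WT. Reads that the copies share could have been counted to either of them.

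RNF212 (chromosome 4, 1056251 to 1113710, minus strand), a ring finger protein of the crossover sites, had 0 counts in all 3 AQP1 KO libraries, against 847, 875 and 893 counts in WT. WT varied little, at 21.2 ± 0.254 CPM, and no AQP1 KO library held a single read of it. By the same kind of exact counting interval as for PRDM9, the RNF212 level was at least 680-fold lower in AQP1 KO. Its fitted log2 fold change of -12.77 depends on the prior count and is no bound. PRDM9 and RNF212 could pass the filter on low counts only through the WT libraries, so a difference was built into their being tested. In bulk RNA, fewer cells with a transcript and less transcript per cell cannot be told apart, so the WT levels may be those of every cell or of some cells.

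PRDM9 and RNF212 made up 0 to 5.48% of all member counts in an AQP1 KO library and 93.0 to 95.7% in a WT library. The 10 members summed to 1.74 to 2.14 CPM in AQP1 KO and 61.2 to 68.0 CPM in WT. Without those genes the sums were 1.69 to 2.14 CPM in AQP1 KO and 2.64 to 4.42 CPM in WT. PRDM9 and RNF212 were selected on their count difference between these clones, so their share follows from that choice and nothing is read from it. Members above 1 CPM in every WT library numbered 3 (PRDM9, RNF212 and SMC1B), and 0 members passed 1 CPM in any AQP1 KO library.

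Among the 3 members that are meiotic cohesin subunits, SMC1B was the one whose clones did not overlap. SMC1B (chromosome 22, 45344063 to 45413599), which takes the place of SMC1A in meiotic cohesin, had 31, 33 and 14 counts in AQP1 KO, against 114, 133 and 64 in WT. Library c was the lowest of its clone on both sides, and the highest AQP1 KO library, b, stayed below the lowest WT library, c. The means were 0.648 ± 0.234 CPM in AQP1 KO and 2.52 ± 0.879 CPM in WT. The ratio of summed counts was 0.261 (95% counting interval 0.201 to 0.336), and the fitted log2 fold change was -2.00. SMC1B was thus the member with the most counts in AQP1 KO, 78 in all, and kept RNA in both clones.

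REC8 and STAG3 did not separate the clones. REC8 (chromosome 14, 24172080 to 24180923), the cleavable cohesin ring subunit of meiosis, had 19, 13 and 36 counts in AQP1 KO and 25, 24 and 15 in WT. Library c was the highest of AQP1 KO and the lowest of WT, and the ratio was 1.11 (0.775 to 1.58). The fitted log2 fold change of REC8 was 0.11, and it turned to -0.43 without AQP1 KO library c and to -0.10 without WT library c. STAG3 (chromosome 7, 100177724 to 100219334), the meiotic counterpart of STAG1 and STAG2, had 7, 9 and 14 counts in AQP1 KO and 7, 5 and 11 in WT, with a ratio of 1.36 (0.763 to 2.45). The intervals of both genes include equal levels, and no difference was detectable at this depth. REC8 overlaps IPO4 on the opposite strand and STAG3 overlaps PVRIG on the same strand and CASTOR3 on the opposite one. How strand was treated in counting is not stated, so both genes' few counts are uncertain, and STAG3 further shares sequence with pseudogene copies.

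The synaptonemal complex genes were near the floor. SYCP2 (chromosome 20, 59863571 to 59933637), an axis protein that binds SYCP3, had 0, 7 and 5 counts in AQP1 KO, against 25, 10 and 14 in WT. The clones did not overlap, with 0.171 CPM in the highest AQP1 KO library and 0.242 CPM in the lowest WT library, and the ratio was 0.255 (0.123 to 0.487). SYCP3 (chromosome 12, 101728648 to 101739462), the other axis filament protein, had 6, 3 and 8 counts in AQP1 KO and 5, 0 and 2 in WT. The SYCP3 libraries overlapped, and its ratio of 2.53 had an interval of 0.997 to 7.21. SYCP3 lies opposite CHPT1, a phospholipid synthesis gene whose log2 fold change was 1.09, and reads of the pair cannot be told apart without the strand setting. SYCP2 thus stood lower in AQP1 KO while its partner SYCP3 did not, with the few counts of each as the limit. HORMAD1 (chromosome 1, 150698060 to 150720895), which recruits break-forming proteins to the axis, had none.

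DMC1 (chromosome 22, 38509147 to 38570183) had 6, 4 and 2 counts in AQP1 KO and 3, 5 and 4 in WT. The sums were 12 counts in each clone, and the ratio was 1.04 (0.428 to 2.53). SPO11 (chromosome 20, 57329803 to 57343993), the enzyme that cuts the DNA, had no count. The WT clone therefore had RNA of the gene that marks break sites and of a crossover gene, with the nuclease that makes the breaks undetected and the strand exchange enzyme at the floor.

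Compared per length of exon, the order of the members differed between the clones. In AQP1 KO, REC8 stood at 0.152 ± 0.0897 and SMC1B at 0.152 ± 0.0551 CPM per kb of exon, level with each other and clear of the rest. SYCP3, STAG3, DMC1, SYCP2 and PRDM9 followed at 0.038, 0.0299, 0.0283, 0.0158 and 0.0117 CPM per kb, each within the spread of its neighbour, and RNF212 was at 0. In WT, PRDM9 led at 9.36 ± 0.696 CPM per kb, followed by RNF212 at 4.23 ± 0.0508 and SMC1B at 0.593 ± 0.207, and each of these stood clear of the next. REC8 at 0.135 ± 0.0362 and SYCP2 at 0.0616 ± 0.0302 CPM per kb overlapped in their WT libraries. DMC1 at 0.0275, STAG3 at 0.0216 and SYCP3 at 0.0149 CPM per kb lay within each other's spread.

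The meiotic subunits can be set beside the body cell proteins they replace. SMC1A, the counterpart of SMC1B, stood at 44.1 CPM per kb in AQP1 KO and 40.7 in WT. RAD21, the counterpart of REC8, stood at 90.0 CPM per kb in AQP1 KO and 68.3 in WT. STAG1 and STAG2, the counterparts of STAG3, were at 13.6 and 49.3 CPM per kb in AQP1 KO, and at 18.5 and 50.9 in WT. Each of these 3 members was thus far below its counterpart in both clones. The mitotic cohesin list of 12 genes was tested whole: 4 rose (33.3%), 7 fell (58.3%) and 1 did not pass. Over all tested genes, 37.1% rose and 37.2% fell. The list had a median log2 fold change of -0.12, beside 0.01 over all tested genes. None of its genes moved by a factor of 2 or more. The largest rises were PDS5B, a regulator of the ring (0.59, SE 0.04), and RAD21 (0.34, SE 0.02). The largest falls were CDCA5, or sororin, which keeps sister chromatids together (-0.61, SE 0.03), and STAG1 (-0.51, SE 0.03). All 4 had edgeR BH-adjusted p-values of 1.92e-08 or lower.

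**Figure D2:**
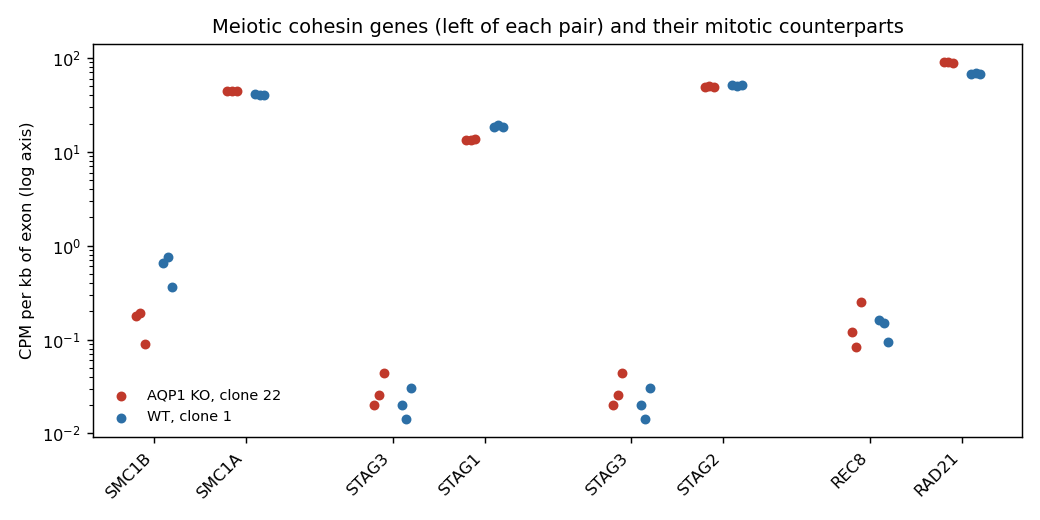
CPM per kb of exon on a log axis for meiotic cohesin genes (left of each pair) and their mitotic counterparts, 1 point per library, with AQP1 KO in red left of WT in blue. Each meiotic gene shown lies below its counterpart in both clones, and among the meiotic genes shown SMC1B is the one whose libraries separate the clones.

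Other genes of meiosis were followed in 7 role lists of 76 genes in all. Of these, 61 had a count and 15 were at 0 in every library, among them STRA8, the entry signal of meiosis, and the crossover genes MSH4 and MSH5. How reads that match several places were counted is not stated, so a count of 0 need not mean absent RNA. The edgeR fit tested 43, of which 8 rose (18.6%), 20 fell (46.5%) and 15 did not pass. The median log2 fold change was -0.15, beside 0.01 over all tested genes, 37.1% of which rose and 37.2% fell. Changes of a factor of 2 or more were few, with 3 rises and 4 falls. Among them MEI4, MAJIN, MEI1 and AURKC, described below, could pass the filter on low counts only through the clone where they were higher. A difference was thus built into their being tested and into these counts of rises and falls. The lists hold genes that dividing body cells also use, such as BRCA2 and PLK1, so a change in a list is not a change of meiosis alone.

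In break formation, 1 of 7 tested genes rose and 3 fell, beside 37.1% rises and 37.2% falls over all tested genes. MEI4, a partner of the break machinery, had 0 counts in all AQP1 KO libraries, against 114, 92 and 90 in WT (2.40 ± 0.36 CPM). By the exact 95% counting interval it was at least 76.6-fold lower in AQP1 KO (edgeR BH-adjusted p = 7.07e-08). As for RNF212, it could pass the filter only through WT. MEI1, another break formation gene, which could pass the filter only through AQP1 KO, ran the other way, with 21, 26 and 17 counts in AQP1 KO against 3, 11 and 6 in WT (log2 fold change 1.66, SE 0.50, edgeR BH-adjusted p = 0.00886). ZCWPW1, which reads the histone marks that PRDM9 writes, was at 3.40 ± 0.504 CPM in AQP1 KO and 4.44 ± 0.614 CPM in WT. Its log2 fold change was -0.44 (edgeR BH-adjusted p = 0.0333), and the call was lost in 6 of 12 alternatives (adjusted p 0.0156 to 0.147), among them DESeq2, library totals alone and leaving out AQP1 KO library a or c or WT library a or b. The reader of PRDM9's marks thus had RNA in both clones, and the writer in WT.

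Beside 37.2% falls over all tested genes, 1 of 2 tested genes fell in the axis and synaptonemal complex list of 11. That gene was TRIP13, an ATPase that strips HORMA domain proteins from the axis and also serves the mitotic checkpoint, at 107 ± 2.69 CPM in AQP1 KO and 108 ± 3.59 in WT. Its libraries overlapped, and its log2 fold change of -0.08 lost the call in 10 of 12 alternatives (adjusted p 0.0111 to 0.538), among them leaving out any library other than WT library b. SYCP2L, a relative of SYCP2 chosen after its values were seen, was not tested and had 6, 4 and 4 counts in AQP1 KO against 0 in every WT library, the reverse of SYCP2.

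In strand exchange, 3 of 10 tested genes rose and 4 fell, beside 37.1% rises and 37.2% falls over all tested genes. BRME1 (listed as C19orf57), which works with HSF2BP to bring BRCA2 to meiotic breaks in mice, had 32, 36 and 36 counts in AQP1 KO against 208, 215 and 235 in WT. Its log2 fold change was -2.65 (SE 0.18, edgeR BH-adjusted p = 1.34e-08). HSF2BP had 77, 68 and 35 counts in AQP1 KO and 34, 29 and 33 in WT, with a log2 fold change of 0.90 (adjusted p = 0.0198). The HSF2BP call was lost without AQP1 KO library a or b or WT library b (adjusted p over 11 alternatives 0.00318 to 0.105). BRCA2 rose to 86.3 ± 1.19 CPM in AQP1 KO, against 50.6 ± 1.38 CPM in WT (0.72, SE 0.04, adjusted p = 1.19e-09). PSMC3IP, which aids DMC1, was lower at 18.2 ± 1.28 CPM in AQP1 KO against 27.9 ± 1.79 CPM in WT (-0.67, SE 0.07, adjusted p = 7.96e-07). Members of one complex thus moved in both directions, BRME1 down and BRCA2 up.

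In crossover maturation, the list closest to RNF212 in role, 0 of 9 tested genes rose and 6 fell. Over all tested genes, 37.1% rose and 37.2% fell. The median log2 fold change of the list was -0.24, beside 0.01 over all tested genes. These counts rest on few genes, and nothing about RNF212 is read from them. CNTD1, needed for crossover maturation in mice, had 31, 26 and 20 counts in AQP1 KO against 92, 58 and 49 in WT. Its log2 fold change was -1.37 (SE 0.33, edgeR BH-adjusted p = 0.00182). MUS81, a nuclease that resolves joint molecules in body cells too, was at 25.1 ± 1.52 CPM in AQP1 KO and 35.4 ± 1.1 CPM in WT (-0.55, SE 0.06, adjusted p = 1.42e-06). HFM1, a crossover helicase chosen after its values were seen and not tested, had 19, 10 and 11 counts in AQP1 KO against 0, 0 and 4 in WT. HFM1 and RNF212 thus ran in opposite directions between the clones.

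In telomere attachment, which ties chromosome ends to the nuclear envelope, 0 of 4 tested genes rose and 3 fell. Over all tested genes, 37.1% rose and 37.2% fell. MAJIN (listed as C11orf85), a membrane protein of the attachment complex, had 2, 9 and 4 counts in AQP1 KO against 54, 89 and 65 in WT. Its log2 fold change was -3.76 (SE 0.45, edgeR BH-adjusted p = 4.14e-06), and it could pass the filter on low counts only through WT. SUN2, a nuclear envelope protein used in all cells, was at 40.2 ± 2.4 CPM in AQP1 KO and 71.1 ± 2.71 CPM in WT (-0.88, SE 0.05, adjusted p = 4.38e-09).

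In meiotic entry, 1 of 4 tested genes rose and 0 fell, beside 37.1% rises and 37.2% falls over all tested genes. The riser was YTHDC2, an RNA helicase needed for meiotic entry in mice, at 47.9 ± 3.86 CPM in AQP1 KO and 39.8 ± 1.21 CPM in WT (log2 fold change 0.21, edgeR BH-adjusted p = 0.00698). In meiotic divisions, 3 of 7 tested genes rose and 3 fell, beside the same 37.1% and 37.2% over all tested genes. FBXO43, an inhibitor of the anaphase-promoting complex, had 244, 250 and 315 counts in AQP1 KO against 103, 105 and 118 in WT (1.32, SE 0.17, adjusted p = 7.09e-06). AURKC, the Aurora kinase of germ cells, which could pass the filter only through AQP1 KO, had 11, 16 and 20 counts in AQP1 KO against 6, 1 and 7 in WT. Its log2 fold change was 1.73 (SE 0.61, edgeR BH-adjusted p = 0.0205), and the call was lost without AQP1 KO library c or WT library b (adjusted p over 11 alternatives 0.0179 to 0.0835). SGO1 (listed as SGOL1), the protector of cohesin at centromeres, and the mitotic kinase PLK1 fell, by 0.28 (adjusted p = 0.00256) and by 0.36 (adjusted p = 1.09e-07) on the log2 scale.

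**Figure D3:**
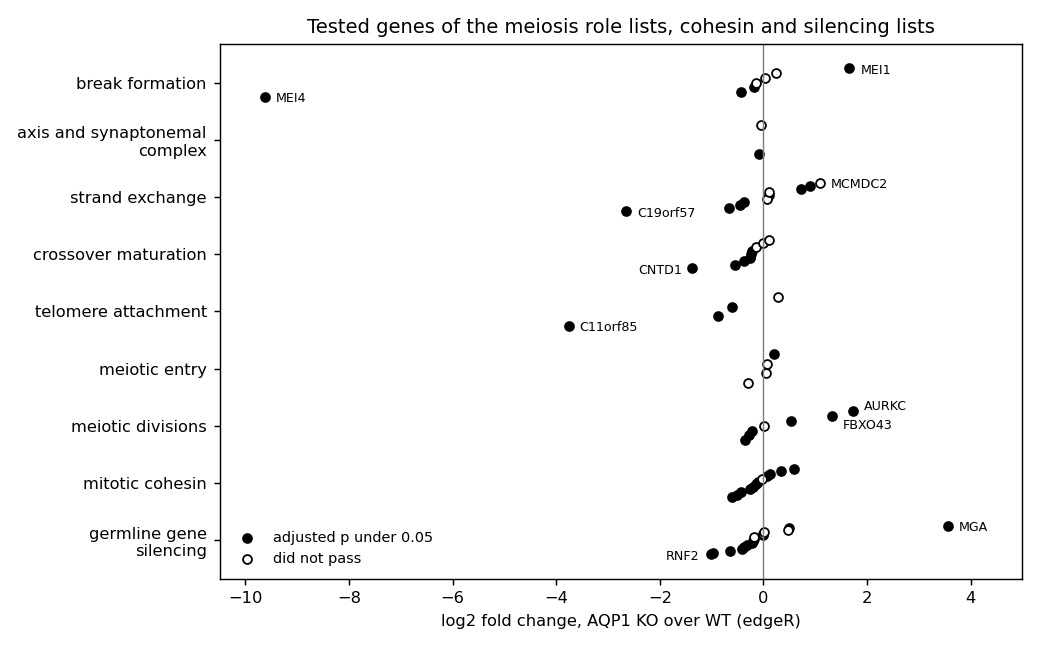
Log2 fold changes (AQP1 KO over WT, edgeR) of the tested genes of the 7 meiosis role lists, the mitotic cohesin list and the germline gene silencing list, 1 point per gene; filled points passed a BH-adjusted p of 0.05 and open points did not, and names mark genes at 1 or beyond in either direction. MEI4, C11orf85 and C19orf57 lie far to the left, MGA far to the right, and the mitotic cohesin genes lie between -0.61 and 0.59.

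Germ cell markers were examined because RNA of meiosis genes can come with a wider germline programme. Of 20 germ cell markers, 10 were at 0 in all libraries, among them DAZL, NANOS2, PIWIL1, SYCP1, MAGEA4, TNP1, PRM1 and PRM2. DDX4, the helicase that defines germ cells, had 0, 3 and 1 counts in AQP1 KO against 0 in every WT library. The 20 markers summed to 9.17 to 10.9 CPM in AQP1 KO and 4.34 to 6.1 CPM in WT. Most of this was ZP3, an egg coat protein, at 9.40 ± 0.724 CPM in AQP1 KO and 3.82 ± 0.562 CPM in WT (log2 fold change 1.24, SE 0.13, edgeR BH-adjusted p = 1.44e-06). Without ZP3 the sums were 0.539 to 1.27 CPM in AQP1 KO and 0.647 to 1.72 CPM in WT, which overlap. TDRD9, a germ cell helicase chosen after its values were seen and not tested, ran the other way, with 4, 3 and 6 counts in AQP1 KO against 14, 42 and 10 in WT. Of 10 markers of testis body cells, 8 had a count and 4 were tested, with 3 rises and 1 fall, beside 37.1% rises and 37.2% falls over all tested genes. CYP11A1, a steroid synthesis enzyme, rose (log2 fold change 1.02, SE 0.23, adjusted p = 0.00113), and GATA4, a transcription factor, fell, at 3.40 ± 0.553 CPM in AQP1 KO and 5.05 ± 0.675 CPM in WT (-0.62, SE 0.17, adjusted p = 0.00476). STAR, which carries cholesterol to that enzyme and could pass the filter only through AQP1 KO, had 13, 15 and 21 counts in AQP1 KO against 8, 2 and 6 in WT (1.60, SE 0.56, adjusted p = 0.0199), and the call was lost with DESeq2 and without AQP1 KO library c or WT library b (0.017 to 0.0863). The 10 markers summed to 10.1 to 11.9 CPM in AQP1 KO and 7.02 to 10.5 CPM in WT, and their part in the member values was not tested.

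Germline genes are kept silent in body cells by DNA methylation and by repressor complexes, one of which, an E2F6 and MGA form of Polycomb repressive complex, holds meiosis genes silent in mouse embryonic stem cells. Of 16 genes of germline gene silencing, all tested, 2 rose (12.5%), 9 fell (56.2%) and 5 did not pass. Over all tested genes, 37.1% rose and 37.2% fell. The list had a median log2 fold change of -0.20, beside 0.01 over all tested genes. MGA (chromosome 15, 41621224 to 41769940), the scaffold of that complex, had 1788, 1746 and 1548 counts in AQP1 KO, against 160, 135 and 138 in WT. Every AQP1 KO library lay far above every WT library, at 42.8 ± 0.941 CPM in AQP1 KO and 3.51 ± 0.381 CPM in WT. The ratio of summed counts was 12.2 (95% counting interval 11.1 to 13.5) and the log2 fold change 3.56 (SE 0.08, edgeR BH-adjusted p = 7.85e-14). MGA was therefore low in the clone where PRDM9 and RNF212 were high, and its part in the member values was not tested.

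The partners of MGA moved less and the other way, or did not pass. E2F6, named outside the rule of size as the DNA-binding partner, fell (log2 fold change -0.42, SE 0.07, edgeR BH-adjusted p = 9.06e-05). RNF2, the ubiquitin ligase of Polycomb complexes, was at 38.4 ± 3.27 CPM in AQP1 KO and 74.9 ± 1.67 CPM in WT (-1.02, SE 0.06, adjusted p = 2.38e-09). TRIM28, a corepressor of zinc finger proteins, was at 197 ± 2.21 CPM in AQP1 KO and 376 ± 4.54 CPM in WT (-0.98, SE 0.02, adjusted p = 2.39e-13). DNMT3A, a DNA methyltransferase, was the other gene that rose, at 23.6 ± 1.12 CPM in AQP1 KO and 16.2 ± 0.598 CPM in WT (0.49, SE 0.06, adjusted p = 6.64e-06). Apart from MGA and RNF2, no gene of the list moved by a factor of 2 or more. The exact letters GGCGGGAA, searched above as E2F6-type, lie in the PRDM9 and SYCP2 windows and in neither of the RNF212 and SMC1B windows. Shorter or variant forms of the motif were not searched, so no lack of an E2F6 site is read from this.

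**Figure D4:**
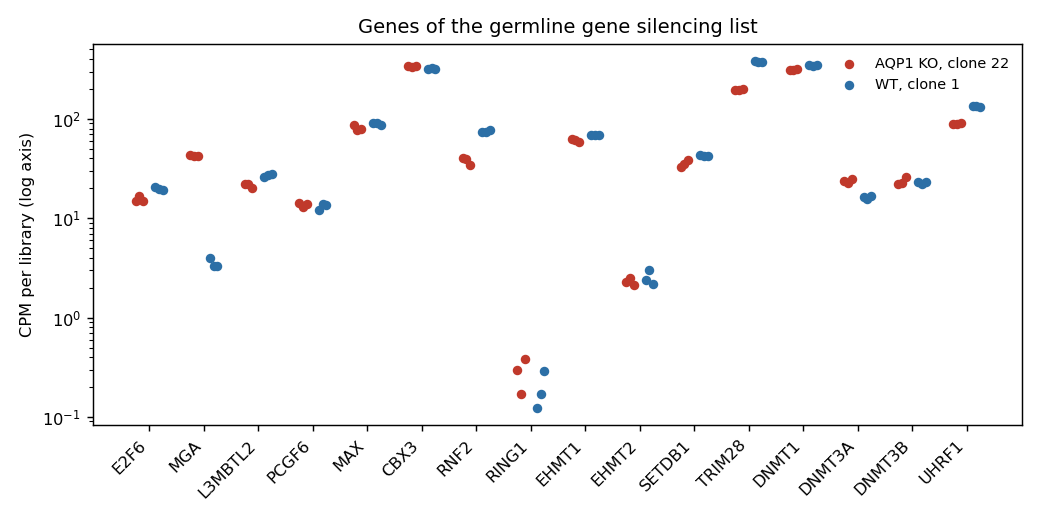
CPM per library on a log axis for the 16 genes of the germline gene silencing list, with AQP1 KO in red left of WT in blue. MGA stands at 41.9 to 43.8 CPM in AQP1 KO and 3.27 to 3.95 CPM in WT, while RNF2 and TRIM28 are lower in AQP1 KO.

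The genes next to the members were read to see whether a member's difference ran across its region. Windows are distances between the lower coordinates of genes, whatever their strand, and gaps to the nearest genes run from edge to edge. PRDM9 lies in a stretch with few active genes: 1 tested gene lay within 1 Mb and 3 within 5 Mb. CDH12, a cadherin of neurons 654 kb away on the side of lower coordinates, had 13, 18 and 24 counts in AQP1 KO against 626, 525 and 571 in WT (log2 fold change -4.95, SE 0.19, edgeR BH-adjusted p = 2.63e-11). CDH10, another neuronal cadherin 959 kb away on the other side, had 13, 12 and 29 counts in AQP1 KO against 2, 0 and 0 in WT (4.54, SE 0.92, adjusted p = 0.000514). The nearest active genes on either side of PRDM9 thus differed between the clones in opposite directions, and CDH10 could pass the filter only through AQP1 KO.

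RNF212 sits among active genes. Of 28 tested genes within 1 Mb, 7 rose and 14 fell, with a median log2 fold change of -0.12. Over all tested genes, 37.1% rose and 37.2% fell, with a median of 0.01. Within the window, 0 fell and 2 rose by a factor of 2 or more. The lowest was SLC26A1 at -0.98, and the 2 large rises were ZNF718 at 7.31 and ZNF876P at 6.76, all named here after their values were seen. FGFRL1, a receptor whose gene ends 29.4 kb away, was at 55.9 ± 2.67 CPM in AQP1 KO and 68.4 ± 4.22 CPM in WT (-0.34, SE 0.05, edgeR BH-adjusted p = 4.32e-05). SPON2, 53.2 kb away on the other side, had 0, 0 and 2 counts in AQP1 KO and 3, 8 and 2 in WT and was not tested. No tested neighbour of RNF212 within 1 Mb was lowered to a like degree.

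The regions below stand beside 37.1% rises, 37.2% falls and a median log2 fold change of 0.01 over all tested genes. Around SMC1B, 22 tested genes lay within 1 Mb, of which 8 rose and 9 fell. Their median was -0.10, and 4 fell by a factor of 2 or more. The lowest neighbour, PRR5, stood at -2.31 beside -2.00 for SMC1B itself. Around SYCP2, 8 tested genes had a median of -0.72, and 6 fell and 1 rose. Around STAG3, whose own counts did not separate the clones, 60 tested genes had a median of -0.51, with 39 falls and 6 rises. Medians around HORMAD1, SYCP3, REC8, DMC1 and SPO11 were -0.07, 0.22, -0.03, -0.23 and 0.05. Around MGA, a region chosen after its values were seen, 35 tested genes had a median of 0.36, with 27 rises and 3 falls, between -2.29 and 2.30. MGA at 3.56 thus lay outside the range of its neighbours within 1 Mb.

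**Figure D5:**
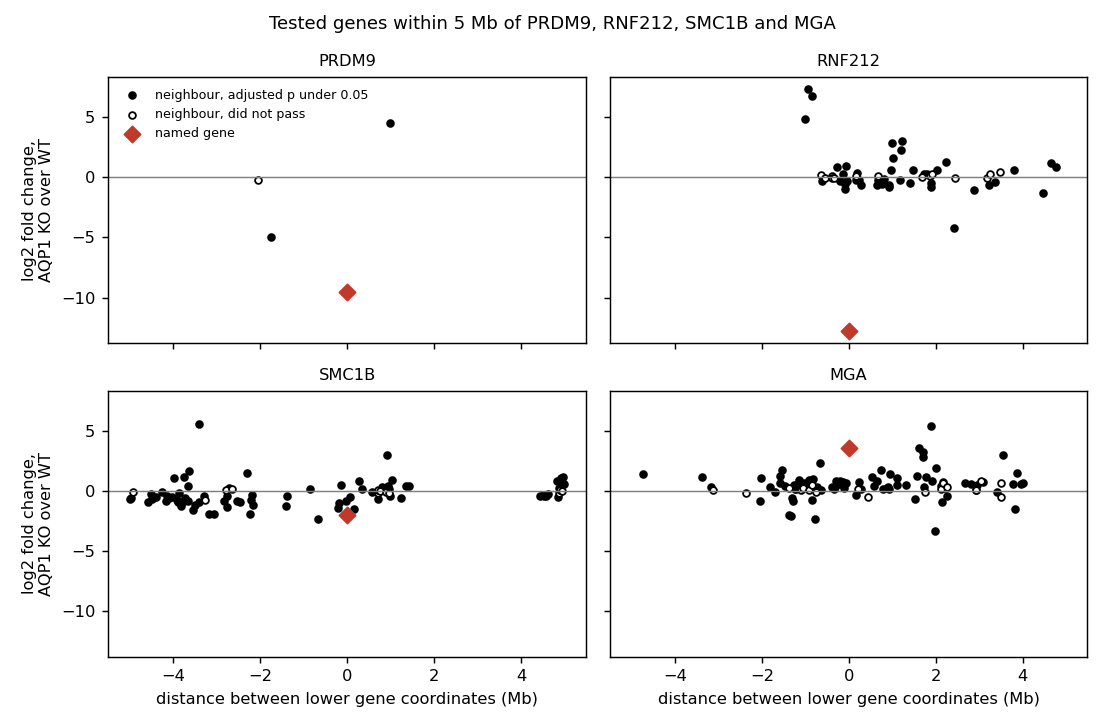
Log2 fold changes (AQP1 KO over WT, edgeR) of tested genes within 5 Mb of PRDM9, RNF212, SMC1B and MGA, against the distance between the lower coordinates of the genes in Mb; filled points passed a BH-adjusted p of 0.05, open points did not, and the red diamond is the named gene. PRDM9 has 3 neighbours, RNF212 lies far below the genes around it, SMC1B lies within the range of its neighbours, and MGA lies above most of its own.

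The genes whose counts were most like those of PRDM9 and RNF212 were named by the Euclidean distance of log2(CPM + 0.5) over the 6 libraries, a description with no test. AFAP1-AS1, LRRTM4 and GLUL were closest to PRDM9, at distances of 0.701, 1.06 and 1.27. LRRTM4, a synaptic adhesion protein, had 6, 10 and 4 counts in AQP1 KO against 2244, 2256 and 2445 in WT. GLUL, or glutamine synthetase, had 16, 20 and 10 counts in AQP1 KO against 1312, 1404 and 1379 in WT. AFAP1-AS1 is an antisense RNA and its counts are uncertain without the strand setting. SLC38A5, an amino acid transporter, STEAP4, a metalloreductase, and IKZF3, a lymphoid transcription factor, were closest to RNF212, at 0.899, 0.91 and 1.35. IKZF3 averaged 0.349 ± 0.136 CPM in AQP1 KO and 21.4 ± 1.15 CPM in WT. None of these 6 genes is in a meiosis list. They were picked by these same values, so their pattern follows from that choice and nothing is read from it.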

How the data were processed

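The authors deposited 1 table of raw read counts per gene symbol, whole numbers with no normalization. Build hg38 and the tools HISAT2, Trimmomatic 0.33, edgeR and FastQC are named, per the submitters' processing notes; per the labels' protocols, libraries were TruSeq stranded mRNA. The sources used here do not give the counting program, the annotation or how strand was treated. Groups came from the genotype labels and letters from the clone labels.

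The counts as deposited were fitted with edgeR 4.0.16 (R 4.3.3), using filterByExpr, TMM factors, a quasi-likelihood F test on the 6 libraries without covariates and Benjamini-Hochberg adjustment over 14405 tested genes, with a threshold of 0.05; 12080 rows were not tested. AQP1, removed by the filter, was added back. Ratios of summed counts carry exact 95% intervals; these and floors (3 counts) cover counting error only. Within groups, chi-square per degree of freedom between libraries was 4.18 to 7.6, so no pair agreed within sampling noise. Lengths are union exons of GENCODE v29, and coordinates and promoters are from RefSeq (GRCh38); 23758 rows matched a current symbol, 1499 an older one and 1228 none. The edgeR fit alone was tried on simulated counts. Few genes changed there, unlike the 74.4% called here, so the simulation does not cover that setting.

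The members and lists were chosen with earlier results of these data known. Named genes are the members, AQP1, PRDM7, the nearest genes with counts beside PRDM9 and RNF212, the 3 closest patterns of each, and up to 2 called rises and 2 called falls per list; others are said to be chosen after their values. The alternatives tried were DESeq2 1.42.0, scaling by RLE or by library totals only, no filter or 1 CPM in 3 libraries, a prior count of 2, a replicate block and each library left out.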

Additional observations from a re-analysis of the deposited data

How the results depend on the processing

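Over the alternatives, the number of genes called was 10009 to 11188, against 10711 as reported. The count of called genes in the meiosis role lists was 25 to 31 (28 as reported), of rises 6 to 12 (8) and of falls 18 to 20 (20), and that of mitotic cohesin genes 10 or 11. For 34 named genes that are not members, 24 of 403 values lost the call and none changed sign. Calls were lost for AURKC, HSF2BP, STAR, TRIP13 and ZCWPW1. The 34 are the called genes picked by size in the lists, with CDH12, CDH10 and FGFRL1. Other named genes, such as E2F6, KRT7 and GLUL, were not followed over the alternatives. The letters do not pair the samples: correlations of the deviations of same-letter libraries were 0.06, -0.02 and 0.01. A fit with the letters as a replicate block called 10599 genes, 29 of them in the meiosis role lists.

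Fitted changes of members near 0 in AQP1 KO moved with the settings. PRDM9 was at -8.65 with a prior count of 2, and -10.45 to -9.03 with each library left out. RNF212 was at -12.74 with library totals alone, -12.19 with DESeq2 and -8.77 with a prior count of 2. Neither changed direction in these; REC8 did, from 0.11 as reported, at -0.43 without AQP1 KO library c and -0.10 without WT library c. The median of neighbours within 5 Mb was -0.20 for PRDM9, with 3 genes, and 0.04 for RNF212. The scaling moved the median of all genes by less than 0.1 (0.06 with library totals alone). Depth limits SYCP2, SYCP3, STAG3 and DMC1, whose counts per library were at most 25.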
